A study of Mus musculus with 4 samples.

Results

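The Trim30 cluster is a group of 4 neighbouring genes of the mouse, Trim30a, Trim30b, Trim30c and Trim30d, and it was followed here through bone marrow and spleen cells of leukaemic mice. The 4 genes were chosen by name, because Trim30c stood among the genes with the largest rise in T cells of these libraries, and they are 4 of the 32285 genes counted. Their T cell values are therefore a description and carry no test. All 4 genes were found in the count tables.

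The genes encode tripartite-motif (TRIM) proteins, which join a RING domain, a B-box and a coiled coil, and many of which act as ubiquitin ligases in antiviral defence. Type I interferon signals through the receptor subunits Ifnar1 and Ifnar2, the kinases Jak1 and Tyk2 and transcription factors that include Irf9 to promoters that hold an interferon-stimulated response element, and Trim30a is a known target of that route. TRIM30a protein dampens inflammatory signalling: it promotes the loss of the NF-κB adaptors TAB2 and TAB3 and restrains the sensors NLRP3 and STING. Trim30b, Trim30c and Trim30d are related copies, and their own roles are less known.

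The mice were C57BL/6J animals of 6 to 8 weeks that had received MA9 cells, a mouse line of acute myeloid leukaemia (AML) driven by MLL-AF9. In 1 group doxycycline switched on a short hairpin RNA in those AML cells against Prmt9, an arginine methyltransferase gene, and in the other a control, and both groups drank doxycycline for 7 days. The hairpin was in the transplanted cells only, and T, B, NK and erythroid cells of the hosts did not carry it. Bone marrow gave the single-cell droplet libraries BM-Ctrl and BM-shPrmt9, and spleen gave Spleen-Ctrl and Spleen-shPrmt9, each the only library of its group and described by the study as that of a representative mouse. There were no replicates, so no difference was tested, and every interval below covers the counting error of unique molecular identifiers (UMIs, 1 per captured transcript) at a level of 95% and nothing else.

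The libraries held 8065 to 11174 cells after filtering, with a median of 6668 to 10548 UMIs per cell, and pairs of libraries shared 15 to 35 cell barcodes. Levels are given as CPM, the count divided by all UMIs of the same cells and scaled to 1e+06. Prmt9 over all kept cells stood at 10.5 CPM in the control and 6.89 CPM in the hairpin marrow, and in spleen at 13.3 and 7.12 CPM. These values include host cells without the hairpin and do not measure the knockdown in the MA9 cells. In MA9 leukaemia-like cells of marrow Prmt9 stood at 11.2 CPM (10.6–11.9) in BM-Ctrl and 5.94 CPM (5.44–6.48) in BM-shPrmt9. Cells of spleen gated as MA9 held 19 and 11 Prmt9 UMIs. T-like cells of both bone marrow libraries had 0 UMIs of 4 Y-linked genes, and those of the spleen libraries had 215 and 219 CPM. The marrow and the spleen libraries of a group hence came from animals of different sex, and tissue, sex and animal cannot be told apart in any comparison of marrow with spleen.

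Each cell was named from its own markers, such as Cd3e, Trac and Trbc2 for T cells, and a name such as T-like means likeness by those markers only. Of the kept cells, 73.9% to 91.7% per library passed the gate of a class. A class was compared where both libraries of a tissue held at least 30 of its cells, which gave 6 classes in bone marrow and 4 in spleen. Cells gated as neutrophil progenitors were led by the eosinophil genes Prg2, Prg3 and Epx, and MA9-gated cells of spleen by Ctsg, Elane and Prtn3, so these 2 groups were not compared under those names. T-like cells had all 9 of their markers in every library, at a summed level of 3523 to 4158 CPM. Erythroid markers summed to 14.7 to 39.4 CPM in them and B cell markers to 12.0 to 192 CPM. All 9 neutrophil markers were found in T-like cells, and their sum was higher beside the hairpin, at 457 against 1005 CPM in marrow and 10.5 against 86.8 CPM in spleen, and their part in the results was not tested.

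On chromosome 7 of GRCm38 the 4 genes lie in tandem on the minus strand between 104355382 and 104507849, with none of the other listed TRIM genes between them. In the GENCODE annotation Trim30b (ENSMUSG00000052749) spans 104355382 to 104369884, Trim30c (ENSMUSG00000078616) 104382065 to 104400837, Trim30a (ENSMUSG00000030921) 104409025 to 104465193 and Trim30d (ENSMUSG00000057596) 104470014 to 104507849. The pseudogene Trim30e-ps1 follows at 104532959 to 104535361. Libraries of this kind count transcripts at their 3′ end, so it was asked whether the genes can be told apart there. In the last 400 bases of the protein-coding transcripts, 0 of 301 stretches of 100 bases of Trim30a and Trim30c, and 0 of 903 of Trim30b, recurred in another gene. For Trim30d 150 of 903 recurred in Trim30a, all in 1 short partial transcript of 635 bases, so a small mixing of Trim30d with Trim30a is possible. RefSeq places the 3′ end of Trim30c 2948 bases farther than GENCODE, and reads from there would be missed by a count against the shorter model.

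The promoters of Trim30a, Trim30d and Trim30c are shown because they share a block of sequence. Trim30b is not compared: its RefSeq window lies at the start of a short model, inside the gene as GENCODE draws it from 104369884, and the GENCODE start was not read. Each line gives 250 bases before to 50 bases after the RefSeq transcription start, 5′ to 3′ on the gene's own minus strand of GRCm38.p6, and capitals mark a pair of GAAA repeats, read on either strand, with 2 bases or 1 base between them. The windows are chr7:104465144-104465443 for Trim30a, chr7:104507800-104508099 for Trim30d and chr7:104400729-104401028 for Trim30c.
Trim30a: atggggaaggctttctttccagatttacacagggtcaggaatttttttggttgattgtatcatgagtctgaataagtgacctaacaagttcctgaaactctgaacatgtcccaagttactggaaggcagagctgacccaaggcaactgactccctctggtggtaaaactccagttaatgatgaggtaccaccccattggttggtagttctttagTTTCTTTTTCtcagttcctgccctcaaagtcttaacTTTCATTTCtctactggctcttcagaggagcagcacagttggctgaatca
Trim30d: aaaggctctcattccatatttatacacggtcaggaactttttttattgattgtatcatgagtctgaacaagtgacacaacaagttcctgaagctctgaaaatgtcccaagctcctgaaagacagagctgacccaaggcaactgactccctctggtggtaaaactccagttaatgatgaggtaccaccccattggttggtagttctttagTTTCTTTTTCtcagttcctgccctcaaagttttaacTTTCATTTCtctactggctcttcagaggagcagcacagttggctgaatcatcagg
Trim30c: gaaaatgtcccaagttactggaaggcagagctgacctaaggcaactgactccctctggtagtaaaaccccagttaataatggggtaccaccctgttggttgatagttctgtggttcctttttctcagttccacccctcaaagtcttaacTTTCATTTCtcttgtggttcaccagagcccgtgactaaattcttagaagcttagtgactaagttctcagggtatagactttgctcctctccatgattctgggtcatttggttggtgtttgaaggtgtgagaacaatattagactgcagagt

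The Trim30a and Trim30d windows were 93.6% identical over 295 bases without gaps and shared an unbroken run of 118 bases. Trim30c and Trim30d were 78.9% identical over 204 bases, with the block 96 bases farther upstream in the Trim30c window. The Trim30c start used lies inside the gene as GENCODE, to 104400837, and RefSeq, to 104400852, draw it. The starts of Trim30a and Trim30d lie at their GENCODE gene ends. The 96 bases thus depend on the start chosen for Trim30c. The wider pair (GAAA, any 2 bases, GAAA), the core of an interferon-stimulated response element, was found in the windows of Trim30a and Trim30d of these 3, and 3.44% of all 32851 RefSeq promoter windows hold it on either strand. The narrower pair (GAAA, any 1 base, GAAA), which 3.17% hold, was found in Trim30a, Trim30c and Trim30d. At the place of the wider pair, the Trim30c window differs from Trim30a by a single substitution, T3C, counted from the first capital of the longer run of Trim30a. RefSeq gives Trim30a a second start, chr7:104446076-104446375, whose window holds both. A match is a likeness of letters and no binding was measured.

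The 4 genes were spread differently over the blood cells (plot of levels by class). Trim30a was broad: in BM-Ctrl it was highest in plasmacytoid dendritic-like cells, at 409 CPM (371–449), followed by monocyte/macrophage-like cells at 151 CPM (143–161), and lowest in erythroid-like and MA9 leukaemia-like cells at 10.5 CPM (7.61–14.2) and 9.93 CPM (9.32–10.6), which overlapped. Its intervals in B-like and T-like cells of BM-Ctrl, at 97.1 and 89.0 CPM, overlapped as well. Trim30d had a similar order at lower levels, from 127 CPM in plasmacytoid dendritic-like and 67.8 CPM in monocyte/macrophage-like cells to 2.59 CPM in MA9 leukaemia-like cells, but its 44.6 CPM in neutrophil-like cells stood above the 31.3 CPM of B-like cells. Trim30b was highest in neutrophil-like cells in each library that held at least 30 of them. In BM-Ctrl it stood there at 106 CPM (102–111), against 27.5 CPM in plasmacytoid dendritic-like, 20.2 CPM in B-like and 3.36 CPM in T-like cells. In neutrophil-like cells of BM-shPrmt9 and Spleen-shPrmt9 it stood at 127 CPM (124–130) and 109 CPM. The 35 basophil-like cells of BM-shPrmt9 had 93.2 CPM (60.9–136), an interval that overlapped the neutrophil-like one. Spleen-Ctrl held too few neutrophil-like cells, and B-like cells led there at 35.2 CPM. Trim30c was low in every class of BM-Ctrl. It was highest there in plasmacytoid dendritic-like cells, at 12.3 CPM (6.57–21.1), and B-like cells, at 9.89 CPM (7.63–12.6), whose intervals overlapped.

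**Figure D1:**
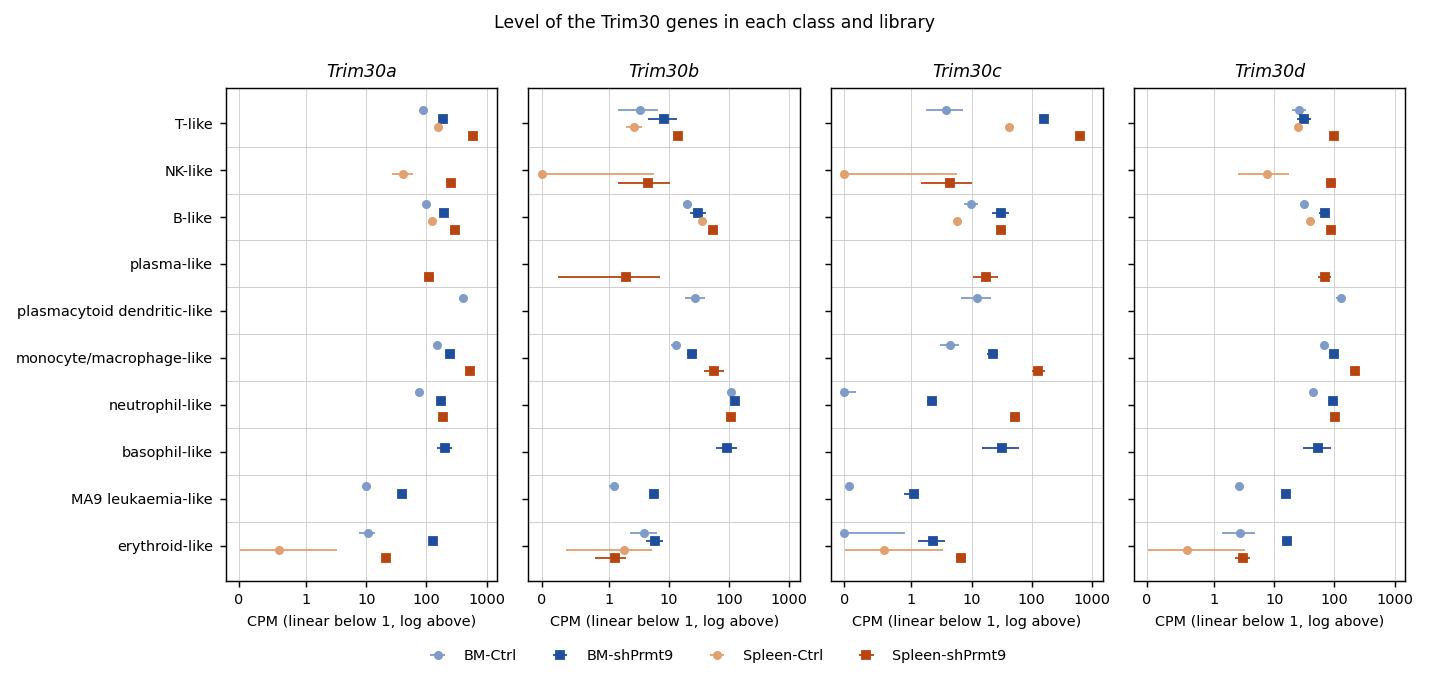
Level of each Trim30 gene in CPM (linear below 1, log above) for classes with at least 30 cells in a library, with 95% Poisson intervals of counting error, circles for control and squares for shPrmt9 libraries. Cells gated as neutrophil progenitors and MA9-gated cells of spleen are left out. Trim30c in T-like cells runs from 3.78 CPM in BM-Ctrl to 630 CPM in Spleen-shPrmt9. Trim30b is highest in neutrophil-like cells where that class is shown, and its interval in basophil-like cells of BM-shPrmt9 overlaps theirs.

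In T-like cells Trim30c showed the pattern for which the genes were picked. It had 9 UMIs in 323 cells of BM-Ctrl, or 3.78 CPM (1.73–7.17), and 288 UMIs in 209 cells of BM-shPrmt9, or 157 CPM (140–177), a ratio of 41.6 (21.6–91.9). In spleen it had 738 UMIs in 2005 cells of Spleen-Ctrl, or 41.7 CPM (38.7–44.8), and 18659 UMIs in 2913 cells of Spleen-shPrmt9, or 630 CPM (621–639), a ratio of 15.1 (14.04–16.3). The intervals of hairpin and control did not overlap in either tissue, which the choice of the gene made likely and which is read as no support. The cell with the most Trim30c held 15 of the 288 UMIs in BM-shPrmt9 and 48 of the 18659 in Spleen-shPrmt9.

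Trim30a also had more UMIs in T-like cells beside the hairpin. It stood at 89.0 CPM (77.4–102) in BM-Ctrl and 187 CPM (168–208) in BM-shPrmt9, a ratio of 2.10 (1.77–2.51), and in spleen 154 CPM (149–160) beside the control and 594 CPM (585–603) beside the hairpin, a ratio of 3.85 (3.70–4.01). Trim30d had unlike ratios in the tissues. In spleen it went from 25.2 CPM (22.9–27.6) to 99.6 CPM (96.1–103), a ratio of 3.95 (3.58–4.38), whereas in bone marrow 62 and 57 UMIs gave 26.0 and 31.1 CPM with overlapping intervals and a ratio of 1.20 (0.819–1.74). Trim30b was the scarcest member in T-like cells, with 8 and 15 UMIs in bone marrow (ratio 2.44, 0.970–6.64) and 47 and 420 UMIs in spleen, where 2.66 and 14.2 CPM gave a ratio of 5.34 (3.94–7.38). Free RNA from other cells limits these low values: in T-like cells of Spleen-Ctrl the erythroid markers reached 9.71% of their library-wide level, and at that share Trim30b would give 2.38 of the 2.66 CPM counted. For BM-shPrmt9, with B cell markers at 15.8%, it would give 6.99 of 8.19 CPM. For Trim30c the same reckoning gives 0.829 of 157 CPM in BM-shPrmt9 and 12.6 of 630 CPM in Spleen-shPrmt9.

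Of the 4 members, 3 were at least 2-fold higher in T-like cells of BM-shPrmt9 and 4 in those of Spleen-shPrmt9, against 5.01% of 10359 and 6.38% of 13750 genes with at least 10 UMIs. Members at least 2-fold lower numbered 0, against 4.65% and 9.4% of genes. With cells of mixed markers kept, the 3 of marrow became 1, Trim30c, with Trim30a at 1.80, Trim30b at 1.53 and Trim30d at 0.982. The choice of the genes used this contrast, and nothing is read from these counts. By size of the ratio, Trim30c was ninth in bone marrow and number 67 in spleen among the genes tested.

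The make-up of the cluster's UMIs in T-like cells shifted with Trim30c (plot of UMI shares). A UMI stands for 1 transcript end, so these shares were not divided by length. Trim30a made up 72.9% (67.4–77.9) of the 291 UMIs of the 4 genes in BM-Ctrl and 68.9% of the 3962 in Spleen-Ctrl. It made up 48.8% of 703 in BM-shPrmt9 and 44.4% of 39620 in Spleen-shPrmt9. Trim30c went in marrow from 3.09% (1.42–5.79) to 41.0% (37.3–44.7), in spleen from 18.6% (17.4–19.9) to 47.1% (46.6–47.6), so that in Spleen-shPrmt9 its share passed that of Trim30a. In the other classes the Trim30c share was lower than in T-like cells of Spleen-shPrmt9: it lay at 20.8% and 16.7% in erythroid-like cells of Spleen-shPrmt9 and Spleen-Ctrl, the second being 1 of 6 UMIs, and at 13.8% or less elsewhere.

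More T-like cells held a Trim30c UMI beside the hairpin, too. To compare libraries of unequal depth, each cell was thinned to 2000 UMIs, which left out 2 to 91 shallower cells per library. Trim30c was then found in 0 of 315 cells of BM-Ctrl, with an exact interval up to 1.16%, in 18.8% of BM-shPrmt9 (13.8–24.8), in 7.09% of Spleen-Ctrl (6.01–8.31) and in 57.7% of Spleen-shPrmt9 (55.8–59.5). Without thinning the shares were 2.48%, 31.6%, 16.9% and 78.8%, at median depths of 6759, 7476, 7175 and 8770 UMIs. Among erythroid-like cells, taken as a background class, thinning left 0%, 0.235%, 0% and 0.965% with a UMI, at median depths of 5709, 4712, 10661 and 12035 UMIs. In Spleen-shPrmt9 48.8% of T-like cells held 5 or more Trim30c UMIs, against 1.45% in Spleen-Ctrl. In NK-like cells of Spleen-shPrmt9, which had a like depth of 8530 UMIs, 2 of 112 thinned cells had one.

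**Figure D2:**
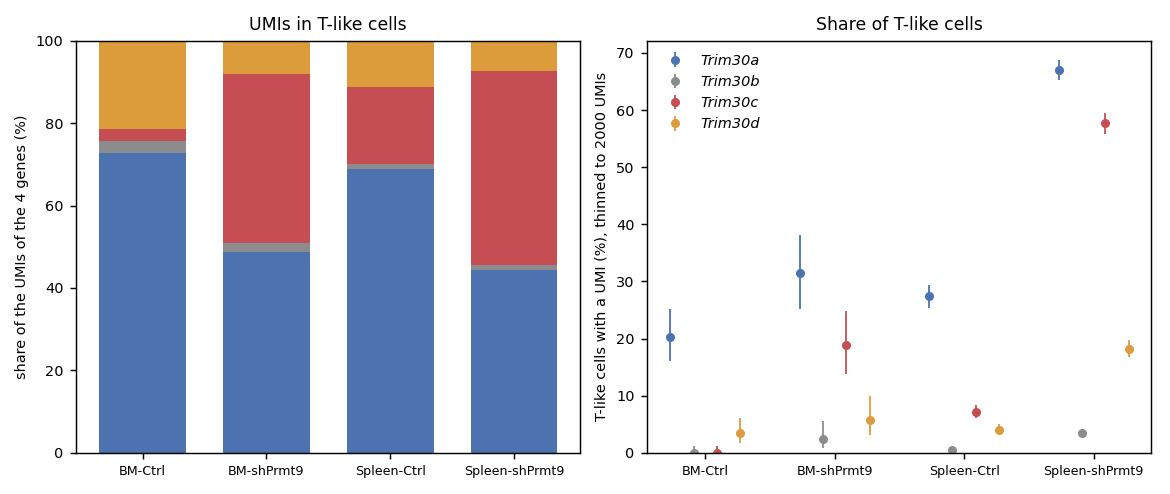
Left, share (%) of each gene among the UMIs of the 4 Trim30 genes in T-like cells of each library. Right, share (%) of T-like cells with at least 1 UMI after thinning to 2000 UMIs, with exact binomial intervals: Trim30c goes from 7.09% to 57.7% in spleen.

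T-like cells were split by their own Cd8a, Cd8b1 and Cd4 UMIs (plot of T cell subsets). In Spleen-Ctrl Trim30c was mainly a gene of the Cd8 cells: those with a Cd8 and no Cd4 UMI (999 cells) had 63.1 CPM (58.3–68.1), those with a Cd4 and no Cd8 UMI (439 cells) 5.27 CPM (3.01–8.56), and those with neither (504 cells) 13.2 CPM (9.59–17.6). In Spleen-shPrmt9 the same groups had 739 CPM (726–753), 514 CPM (497–532) and 526 CPM (508–545). As a ratio of levels the gap between Cd8 and Cd4 cells was far narrower there, while as a difference in CPM it was wider. The ratio of the libraries was 11.7 (10.8–12.7) in Cd8 cells, 97.5 (59.97–171) in Cd4 cells, from 16 and 3363 UMIs, and 40.01 (29.8–55.0) in cells with neither, and the first interval overlapped neither of the others. For Trim30a and Trim30d the intervals of the ratio in Cd8 and in Cd4 cells overlapped. The Trim30a levels were a little higher in Cd4 than in Cd8 cells, at 177 CPM (162–192) against 149 CPM (142–156) in Spleen-Ctrl and 660.2 CPM (641–680.2) against 543 CPM (531–555) in Spleen-shPrmt9. Trim30a had ratios of 3.65 (3.45–3.85) in Cd8 and 3.73 (3.41–4.09) in Cd4 cells of spleen, and Trim30d 3.94 (3.45–4.51) and 3.78 (2.99–4.83). For Trim30b they were 3.35 (2.29–5.03) and 6.65 (3.40–14.9), from as few as 9 control UMIs. In bone marrow Trim30c had a ratio of 40.8 (19.5–103) in Cd8 cells, from 7 and 202 UMIs, and 0 and 11 UMIs in the 28 and 22 Cd4 cells.

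**Figure D3:**
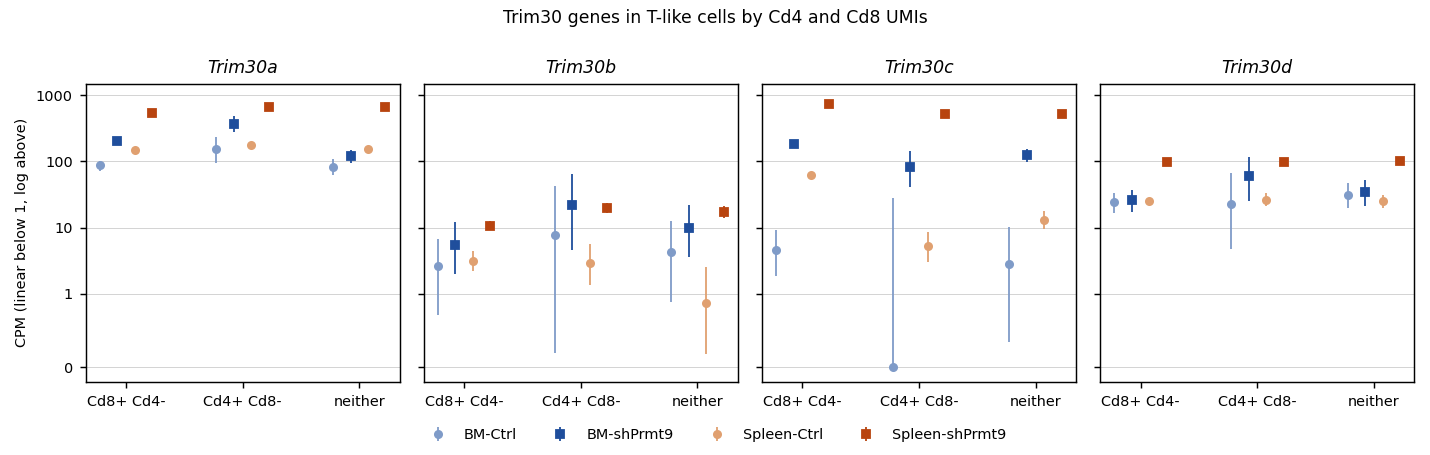
CPM (linear below 1, log above) of each Trim30 gene in T-like cells with a Cd8 and no Cd4 UMI, with a Cd4 and no Cd8 UMI, or with neither, by library, with 95% Poisson intervals. Trim30c of Spleen-Ctrl lies at 63.1 CPM in Cd8 and 5.27 CPM in Cd4 cells, and both lie above 500 CPM in Spleen-shPrmt9.

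Outside T-like cells the members were again higher or level beside the hairpin, with 1 exception of few counts (plot of ratios). Counted as at least 2-fold higher were 4 of 4 in MA9 leukaemia-like cells of bone marrow, where 13.8% of all genes tested were, 3 in neutrophil-like cells (5% of genes), 1 in monocyte/macrophage-like cells (7.99%), 3 in B-like cells of bone marrow (6.17%), 3 in erythroid-like cells of bone marrow (14.1%), 2 of the 2 with at least 10 UMIs in NK-like cells of spleen (12.2%), 3 in B-like cells of spleen (5.66%) and 3 in erythroid-like cells of spleen (10.2%), from controls of 1 UMI each. Of these calls, Trim30a in marrow B-like cells went under 2-fold in 6 of 9 alternatives, down to 1.92, and Trim30d in neutrophil-like cells in 2 of 9, to 1.74 as a mean over cells and 1.99 with thinned cells. No member was at least 2-fold lower in any of the 10 comparisons, while 7.62% of genes were in MA9 leukaemia-like, 7.7% in neutrophil-like, 9.06% in monocyte/macrophage-like, 6.71% in B-like and 2.51% in erythroid-like cells of bone marrow, and 4.53% in NK-like, 10.9% in B-like and 27.4% in erythroid-like cells of spleen. The same hairpin and control library of a tissue served all its classes, so these counts do not stand apart from each other.

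Trim30a had its largest ratios in erythroid-like cells. It went from 43 UMIs, or 10.5 CPM, to 902 UMIs, or 127 CPM, in bone marrow, a ratio of 12.1 (8.93–16.9). In spleen it went from 1 UMI, or 0.598 CPM, to 346 UMIs, or 21.2 CPM, a ratio of 35.4 (6.31–1402). Those 21.2 CPM were the lowest Trim30a level of the classes of Spleen-shPrmt9 with at least 30 cells. T markers stood in these cells at 1.10% of their level in T-like cells, and Trim30a at 3.56% of its own. The size of both ratios depends on the processing: in marrow the ratio was 19.6 with thinned cells and 24.8 as a mean over cells, and in spleen 9.20 with mixed cells kept, 54.4 with TMM factors and 162 as a mean over cells. In NK-like cells of spleen 27 and 293 UMIs gave 41.3 and 260 CPM and a ratio of 6.29 (4.24–9.72). The remaining ratios were 3.95 (3.68–4.25) in MA9 leukaemia-like, 2.27 (2.16–2.40) in neutrophil-like, 1.61 (1.47–1.75) in monocyte/macrophage-like and 2.01 (1.73–2.33) in B-like cells of bone marrow, and 2.35 (2.27–2.44) in B-like cells of spleen. None of these intervals reached 1. What stray RNA or mixed droplets could give was reckoned from foreign markers. Erythroid markers stood in NK-like cells at 68.0% of their library-wide level in Spleen-Ctrl and 25.5% in Spleen-shPrmt9. The share in Spleen-Ctrl was larger than in T-like cells of that library, and whether NK cells express any of these markers was not tested. T markers stood in MA9 leukaemia-like cells at 24.9% in BM-Ctrl and 26.0% in BM-shPrmt9. At those shares, such RNA would give 86.1 of 41.3 and 79.7 of 260 CPM of Trim30a in NK-like cells, and 9.88 of 9.93 and 25.7 of 39.2 CPM in MA9 leukaemia-like cells. In NK-like cells of Spleen-Ctrl the reckoned level exceeds the counted one, so there the reckoning overstates what such RNA gave. The part of such RNA in these levels was not tested.

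Trim30d moved beside Trim30a. Its ratio was 6.17 (5.39–7.08) in MA9 leukaemia-like cells, from 2.59 and 15.9 CPM, against 4.08 and 11.9 CPM that the T marker shares would give, 11.5 (4.76–36.1) in NK-like cells of spleen, from 5 and 99 UMIs, and 5.99 (3.22–12.3) in erythroid-like cells of bone marrow. It was 2.11 (1.97–2.27) in neutrophil-like and 2.19 (1.69–2.82) in B-like cells of bone marrow and 2.26 (2.12–2.41) in B-like cells of spleen. In monocyte/macrophage-like cells 67.8 and 99.0 CPM gave 1.46 (1.28–1.67). In erythroid-like cells of spleen 1 and 49 UMIs gave 5.01 (0.858–202), an interval that reached 1.

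In the neutrophil-like cells, where it was most abundant, Trim30b differed less than Trim30a and Trim30d. In neutrophil-like cells of bone marrow 2253 and 6438 UMIs gave 106 and 127 CPM, a ratio of 1.19 (1.14–1.25), beside 2.27 for Trim30a and 2.11 for Trim30d in the same cells. The median ratio of all genes there was 0.813, and with TMM factors, which set that shift aside, Trim30b had 1.48, Trim30a 2.82 and Trim30d 2.62. Its ratio was 4.68 (3.82–5.76) in MA9 leukaemia-like cells, but from 1.21 and 5.64 CPM, and the T marker shares would give 4.54 and 11.5 CPM, more than was counted. In B-like cells it was 1.52 (1.04–2.18) in bone marrow and 1.56 (1.45–1.68) in spleen, and in monocyte/macrophage-like cells 1.85 (1.38–2.47). In erythroid-like cells of bone marrow it was 1.48 (0.813–2.83). The erythroid-like cells of spleen gave the only value under 1, with 3 and 21 UMIs and a ratio of 0.716 (0.214–3.75), which TMM factors brought above 1.

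**Figure D4:**
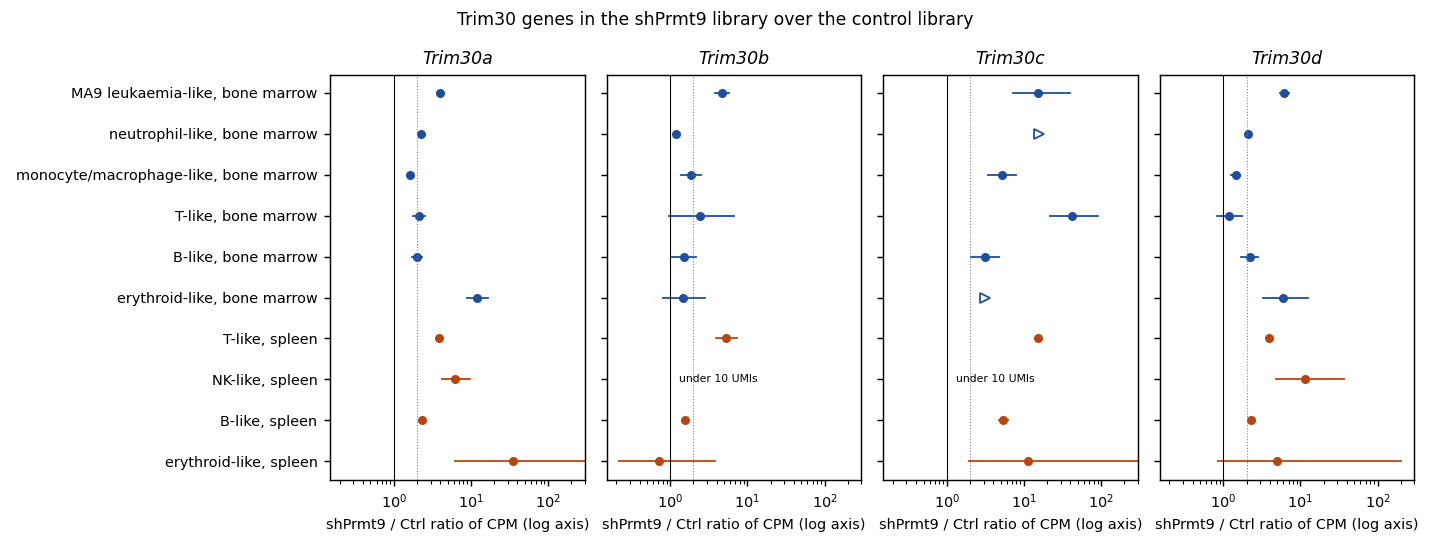
Ratio of CPM in the shPrmt9 over the control library (log axis) for each gene in the 10 compared classes, blue for bone marrow and orange for spleen, with exact intervals of counting error, lines that leave the right edge going on. Open arrows mark lower bounds where the control had 0 UMIs. The solid line is a ratio of 1 and the dotted line 2; the points of Trim30c lie past 2 wherever it could be compared, and its interval in erythroid-like cells of spleen reaches below 2.

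Trim30c, so marked in T-like cells, was also higher beside the hairpin in B-like cells, from 289 UMIs, or 5.81 CPM (5.16–6.52), to 709 UMIs, or 31.4 CPM (29.1–33.8), in spleen, a ratio of 5.40 (4.70–6.21), and from 9.89 to 30.8 CPM in bone marrow, a ratio of 3.12 (2.05–4.69), where 1 cell held 11 of the 40 hairpin UMIs. In monocyte/macrophage-like cells of bone marrow it went from 4.34 CPM (2.97–6.13) to 22.3 CPM (17.9–27.5), a ratio of 5.13 (3.39–7.95). In neutrophil-like cells it had 0 UMIs in 3754 cells of BM-Ctrl and 113 in 5971 cells of BM-shPrmt9. That was 15.8-fold higher against a floor of 3 counts in the control library, and the exact lower limit of the ratio was 12.6. The Trim30c level there was 2.23 CPM, and 53.1 CPM (44.0–63.6) in 149 neutrophil-like cells of Spleen-shPrmt9, for which Spleen-Ctrl held too few cells to compare. In MA9 leukaemia-like cells 7 and 95 UMIs gave 0.0710 and 1.09 CPM and a ratio of 15.4 (7.19–39.4), and the T marker share of BM-shPrmt9 would give 1.36 CPM. That value rests on how cells of mixed markers were treated: it was 4.83 (3.12–7.71) with them and 4.63 (2.94–7.57) with a stricter gate. The 10 genes with the largest fold in MA9 leukaemia-like cells also differed between both libraries, with Fkbp6, Glyat and Pgc leading in BM-Ctrl and Cth, Rnase10 and Nebl in BM-shPrmt9. In NK-like cells of spleen it had 0 and 5 UMIs, as did Trim30b, and no fold is given. In erythroid-like cells of bone marrow it had 0 and 16 UMIs, 8 of them in 1 cell.

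How much of Trim30c in other classes could be T cell RNA was set against the T markers themselves (plot of Trim30c against T markers). In B-like cells of BM-shPrmt9 the T markers stood at 0.253% of their level in T-like cells and Trim30c at 19.6% of its own. In monocyte/macrophage-like cells of the same library these were 0.262% and 14.2%, in neutrophil-like cells 0.191% and 1.42%, and in MA9 leukaemia-like cells 0.374% and 0.696%. In Spleen-shPrmt9 the B-like cells had 1.73% and 4.98%, the monocyte/macrophage-like cells 1.34% and 20.4% and the neutrophil-like cells 2.52% and 8.44%. Trim30c thus lay above the share of the T markers in these classes, by the least in MA9 leukaemia-like cells, where the reckoning from the library-wide level gave more Trim30c than was counted, so for them the comparisons go opposite ways. In erythroid-like cells of Spleen-shPrmt9 both lay together, at 1.10% and 1.06%, where 109 UMIs against 1 UMI in the control gave a ratio of 11.1 (1.96–444). The part of T cell RNA in that value was not tested. In NK-like cells Trim30c stood at 0.704% and the T markers, some of which NK cells also express, at 20.1%.

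**Figure D5:**
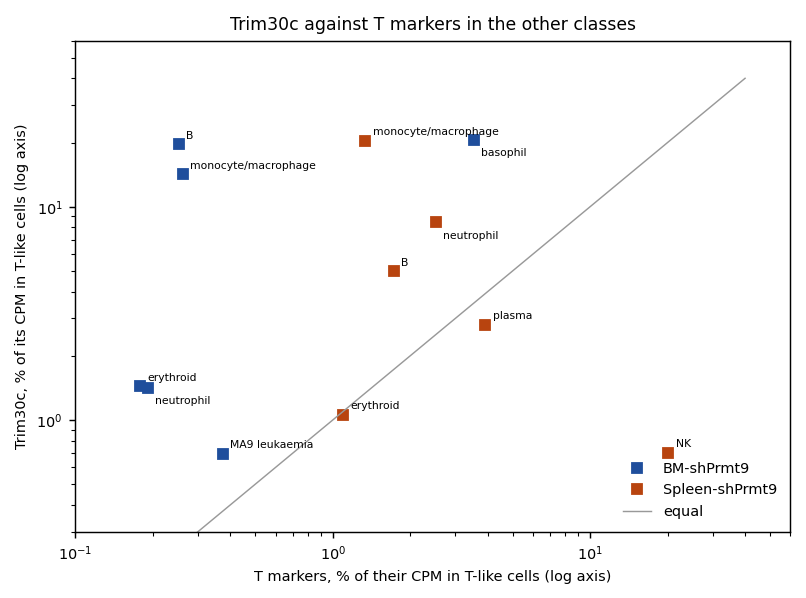
For classes other than T-like cells with at least 30 cells in a shPrmt9 library, the summed T markers (x) and Trim30c (y) as a percentage of their CPM in T-like cells of the same library, both on log axes, with the line of equal percentages. Cells gated as neutrophil progenitors and MA9-gated cells of spleen are left out. B-like and monocyte/macrophage-like cells lie above the line, erythroid-like cells of spleen on it, and NK-like cells below it.

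The TRIM genes listed as neighbours of the cluster on chromosome 7 were compared as a list of 9. Trim21 and Trim68, which start at 102557921 and 102677582, and Trim3, at 105604463, lie farther from it than the others. Past 2-fold higher were 0 of the 6 tested in marrow T-like cells, 1 of 8 in those of spleen, with medians of 1.16 and 1.35 against 1.01 and 0.957 for all genes. Of all genes, 5.01% and 6.38% were past 2-fold higher there. Trim12a and Trim12c, on the same strand as the Trim30 genes, had ratios of 1.51 (1.46–1.57) and 1.58 (1.51–1.65) in T-like cells of spleen, and Trim34a, on the other strand, 1.40. Trim5 had 0.850 (0.766–0.944) and the more distant Trim21 0.812 (0.735–0.898). The gene past 2-fold, Trim6, rested on 4 and 15 UMIs. In B-like cells of spleen Trim5 had a ratio of 0.342 (0.309–0.377), while Trim12c and Trim34a stood at 1.03 and 0.991. In erythroid-like cells of bone marrow all 5 tested were past 2-fold, with a median of 8.45, from 2.66 for Trim5 to 9.69 for Trim12a. In MA9 leukaemia-like and neutrophil-like cells 2 of 8 were, Trim34a with 2.85 and Trim6 with 2.28 in the former, and Trim34a with 2.37 and Trim21 with 2.69 in the latter. Of all genes, 14.1% were past 2-fold higher in erythroid-like cells of bone marrow, 13.8% in MA9 leukaemia-like and 5% in neutrophil-like cells.

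Interferon-stimulated genes gave the wider setting. Of the 50 listed, 48 were in the files, and at least 2-fold higher beside the hairpin were 25 of 45 tested in marrow T-like cells, 25 of 48 in those of spleen, with a median ratio of 2.20 and 2.19 and 0 lower. Of all genes tested there, 5.01% and 6.38% were at least 2-fold higher and 4.65% and 9.4% lower, with medians of 1.01 and 0.957. These shares are the background for the other lists in T-like cells as well. In the other comparisons 30 to 45 of the 38 to 48 genes tested were higher and 0 or 1 lower, with medians from 2.51 in monocyte/macrophage-like cells to 7.89 in marrow erythroid-like cells. Of all genes, 5% to 14.1% were higher and 2.51% to 27.4% lower in these comparisons, with medians from 0.716 to 1.21. Isg15, a ubiquitin-like modifier, went from 166 to 1301 CPM in T-like cells of spleen, a ratio of 7.83 (7.54–8.13), and Bst2, which tethers virions, had 2.92 (2.81–3.04) there, against 15.1 for Trim30c. The list of interferon signalling genes had 3 of 15 higher and 2 lower in marrow T-like cells, against 1 higher and 2 lower in spleen, with Ifngr1 at 0.719, Jak1 at 0.814 and Ifnar2 at 0.753 in spleen. Of 5 other interferon-inducible TRIM genes tested, 0 passed 2-fold in T-like cells of either tissue. Trim25, an activator of RIG-I, had 1.49 (1.37–1.63) in those of spleen, and Pml 1.07 (0.997–1.15). Of 8 genes tied to Trim30a in signalling, among them Tab2, Tab3 and Nlrp3, 1 was past 2-fold higher in marrow T-like cells, 0 in spleen.

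Across 29 combinations of class and library with at least 30 cells, the members did not follow a single pattern. On log2(CPM + 1), Trim30a and Trim30d were the most alike (Pearson r = 0.934), Trim30a and Trim30c had 0.717, Trim30c and Trim30d 0.659, and Trim30b and Trim30c 0.435. The points share 4 libraries, so these values are a description. Among 13394 genes, those most like Trim30a were Trim30d, Slfn8 (0.928), H2-T22 (0.912), Ogfr (0.910) and Tapbp (0.909). Those most like Trim30d were Adar (0.934), Trim30a, Slfn8 (0.904), Tapbp (0.900) and Trim25 (0.884). Among the genes most like Trim30c were Phf11c (0.841), Parp14 (0.821), Parp9 (0.813) and Gbp6 (0.798). Trim30b was most like Ankrd33b (0.866), Gm45894 (0.848), Chst15 (0.842), Cybb (0.827), the catalytic subunit of the phagocyte oxidase, and Plekhm1 (0.820).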

How the data were processed

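Bone marrow and spleen cells were sequenced with a droplet 3′ kit, and the authors counted UMIs per gene and barcode with Cell Ranger (6.1.1 in the submitters' processing notes, 6.0.2 in the file headers) against mm10, the same build as GRCm38. The deposited values are raw UMI counts. The members, gene lists and comparisons were chosen with earlier results of these data known. Groups came from the library titles.

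Barcodes under 200 genes or over 20% mitochondrial UMIs were removed. A cell took a class when it had UMIs of at least 3 of its markers and their UMIs per 10000 reached 1/8 of the 90th percentile among such cells. The markers were listed in advance, the gate was set after seeing the data. Cells that passed gates of 2 unrelated classes were left out as mixed, which stood in for a doublet caller (none was run). Class names were rebuilt in this way, and differences from the study may reflect that.

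Raw counts were summed per class and library and divided by all UMIs of that class and library (CPM), with exact Poisson intervals. Ratios carry an exact conditional binomial interval, and shares of cells an exact Clopper-Pearson interval. A control of 0 UMIs was set to a floor of 3 counts, and a fold against it can exceed the exact lower limit of the ratio. For counts of genes past 2-fold, genes with at least 10 UMIs entered and 0.5 was added to each count. No test was made, with 1 library per group. Named genes were the 4 members, the neighbouring TRIM genes, up to 4 genes of any other list by UMIs, and the 5 most alike per member. Mx1 and Mx2 are not analysed here. Some results are not reported here.

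Alternatives were TMM factors (edgeR 4.0.16), DESeq2 1.42.0 size factors, no cell filter, at most 10% mitochondrial UMIs, 1 more marker, mixed cells kept, a mean over cells, leaving out the cell with the most UMIs of the gene, and thinning. The ratio and interval code was tested on simulated data. Positions are from GENCODE vM21 and RefSeq, promoters from RefSeq, which held windows for all 4 members. Scripts used Python 3.11.15, numpy 2.4.6, scipy 1.17.1 and R 4.3.3.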

Additional observations from a re-analysis of the deposited data

Results flagged for a closer look

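Cells that passed no gate (667 control and 758 hairpin cells of marrow, 277 and 1784 of spleen) took part in no comparison. The Trim30 genes were above the control libraries in them too, except Trim30b in spleen, which was level. The shPrmt9 over control ratio of Trim30c was 69.4 (19.0–577) in bone marrow, from 2 and 202 UMIs, and 19.6 (10.7–41.0) in spleen, from 10 and 1531 UMIs. Trim30a had 2.60 (2.32–2.93) and 2.96 (2.60–3.38), and Trim30d 1.75 (1.51–2.02) and 2.55 (2.06–3.20). Trim30b had 1.42 (1.22–1.66) in bone marrow and 1.03 (0.767–1.41) in spleen, from 50 and 402 UMIs. The make-up of these cells was not tested.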

How the results depend on the processing

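No paired analysis was possible because the labels give no replicate numbers and each group is 1 library. In T-like cells, 67 of 70 alternative values of the 8 member ratios stayed within the interval of the value given. The Trim30d ratio of marrow T-like cells, 1.20 with an interval that holds 1, became 0.982 with mixed cells kept, Trim30b went under 2-fold with mixed cells kept (1.53), and Trim30a with mixed cells kept (1.80) and with the stricter gate (1.95). Values outside it were Trim30a in spleen with TMM factors (4.04) and DESeq2 size factors (4.07), and Trim30d in spleen with thinned cells (4.87). The Trim30c ratio in T-like cells was 38.6 to 50.9 for marrow and 14.5 to 16.0 for spleen. In the other classes 210 of 244 lay within and 34 outside, with 0 reversed among called ratios. The number of genes at least 2-fold higher in T-like cells, 519 in bone marrow and 877 in spleen, was 1845 and 1740 with genes of at least 1 UMI and 173 and 470 with at least 50 UMIs, since more or fewer genes entered. TMM factors multiplied all ratios by 1.24 in neutrophil-like, 0.846 and 1.54 in erythroid-like (bone marrow and spleen), 0.903 in NK-like and 1.10 in B-like cells of spleen. Depth limited Trim30b and Trim30c in NK-like cells and every member in erythroid-like cells of Spleen-Ctrl, where each had 1 to 3 UMIs.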
